A study of Canis lupus familiaris with 8 samples.

Results

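The adrenal cortex of the adult Chinese Field Dog was compared after chronic stress exposure and without it, through 1 messenger RNA library of each kind. These 2 libraries, chosen by their labels of tissue, breed and group, were 2 of the 8 in the series. The remaining libraries covered the pituitary of the same breed and both tissues of adult Beagles, again stressed or unexposed with 1 library each, and only the 2 Beagle adrenal cortex libraries are set beside the results here. The labels name the treated group as exposed to chronic stress, without its kind or length, and the other group as non-disposal, which was read as unexposed. They give no genotype, sex or age beyond adult, and do not say whether a library holds 1 dog or a pool. With 1 library a side there was no spread between replicates and no test, so every value below describes these libraries only.

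The adrenal cortex makes glucocorticoids, mineralocorticoids and androgens from cholesterol. The pituitary hormone ACTH binds the receptor MC2R on cortical cells, raises cyclic AMP and activates protein kinase A, which acts within minutes on cholesterol transport and over longer times on the genes of the steroid enzymes. The cortex surrounds the adrenal medulla, whose chromaffin cells make catecholamines, and the gland is rich in blood vessels and embedded in fat.

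The stressed library held 16289203 recovered reads and the unexposed library 18712035. Genes of the mitochondrial chromosome took 14.5% of reads in the stressed library and 10.5% in the unexposed one, and the 10 genes with most reads took 15.7% and 12.3%. Levels are the authors' FPKM, in which the reads of a gene are divided by its length and by a library scale. Ratios are log2 of stressed over unexposed after adding 1 to each FPKM, which understates differences of genes with low levels. The bracketed range after a log2 ratio is the 95% counting interval of the ratio of reads, without the added 1 and on the scale of the FPKM values; it covers counting error only. A gene counted as measured had a mean FPKM of at least 1, and a gene was called 2-fold different where its log2 ratio reached 1 in either direction. Cortical markers were present, with 11 of 11 matched ones measured and a summed level of 23373 FPKM in the stressed and 18747 FPKM in the unexposed library. Both libraries also held RNA of the medulla, with 29 of 29 matched chromaffin markers measured. In such bulk samples fewer cells of a type and less RNA per cell cannot be told apart.

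Of 13634 measured genes 275 (2.02%) were 2-fold different, 135 (0.99%) higher and 140 (1.03%) lower in the stressed library. On library totals in place of the authors' scale every read ratio is 0.18 lower on the log2 scale, so that list members within that distance above 0 change side. As RPM, reads scaled to the library total with no division by gene length, the split was 45 higher and 142 lower. Many of the 275 rested on few reads, since 110 had fewer than 10 reads over both libraries and 43 had 10 to 49. Among the 12902 genes with at least 50 reads, 122 (0.946%) were 2-fold different, 67 (0.519%) higher and 55 (0.426%) lower. Their ratio of reads was 2-fold as well in 118 of the 122, which was largely fixed in advance because the FPKM come from the same reads. An exception was FHIT, a nucleotide hydrolase, with 44.9 against 17.4 FPKM but 224 against 219 reads. The median log2 ratio of all measured genes was 0.01, with 7047 genes higher and 6586 lower. The values nearest the 2-fold limit among well-read named genes included RAP1GAP2 (1.16 against 3.33 FPKM) just inside and BEGAIN and ATF7IP2 just outside (log2 -0.99 each).

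**Figure D1:**
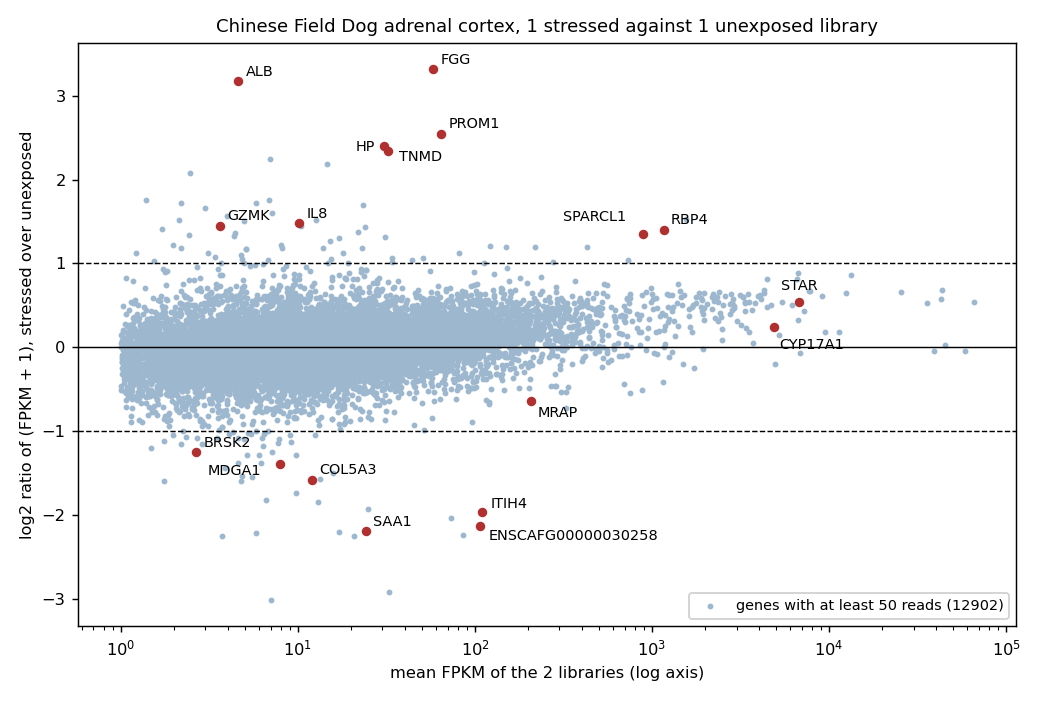
Log2 ratio of FPKM + 1, stressed over unexposed, against mean FPKM of the 2 libraries (log axis) for the 12902 genes with at least 50 reads; each point is a gene, dashed lines mark 2-fold, and red points are named. FGG and ALB stand highest at 3.32 and 3.17, ITIH4 is at -1.96, and the bulk of points drifts above 0 toward high FPKM.

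The steroid-making genes were close in level in both libraries, with STAR and CYP11A1 higher in the stressed one. STAR, the protein that brings cholesterol to the inner mitochondrial membrane (chr16:27326035-27331117, CanFam3.1), read 7984 FPKM in the stressed and 5494 in the unexposed library (log2 0.54, interval 0.53 to 0.55). CYP11A1, the side-chain cleavage enzyme that turns cholesterol into pregnenolone (chr30:37475245-37487340), read 2202 against 1573 FPKM (log2 0.48). Its electron donors were also higher. FDX1, adrenodoxin, read 2622 against 2115 FPKM (log2 0.31), and FDXR, its reductase, 413 against 329 (log2 0.33). The later enzymes differed less. CYP17A1, which leads to cortisol and androgens, read 5308 against 4494 FPKM (log2 0.24), HSD3B 5495 against 4967 (log2 0.15) and CYP21, the 21-hydroxylase, 3764 against 3625 (log2 0.05).

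Of 15 measured members of the steroid synthesis list, 11 were higher and 4 lower, none by 2-fold, with a median log2 of 0.24 against 0.01 for all genes. The smaller members that were higher were SRD5A1, HSD17B4, CYB5A, TSPO and HSD17B12, at log2 0.13 to 0.42. The 4 lower members were HSD17B1, an estrogen enzyme (log2 -0.02), GATA6, a factor of cortical cells (log2 -0.20), NR0B1, the repressor DAX-1 (9.67 against 11.8 FPKM, log2 -0.26), and STARD3, a cholesterol transporter of late endosomes (log2 -0.28). The main steroid genes are among the most abundant of the tissue, and genes at 500 FPKM or more had a median log2 of 0.43. STAR and CYP11A1 lay slightly above that median, and FDX1, CYP17A1, HSD3B and CYP21 below it. After centring on genes of like mean FPKM the list's median was 0.03. The Beagle values were log2 -0.31 for STAR, 0.04 for CYP11A1 and -0.00 for the list's median. CYP11B1, CYP11B2 and NR5A1 had no matching symbol and were not analysed here.

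The ACTH receptor itself was nearly equal, while its partner was lower. MC2R read 98.1 FPKM in the stressed and 96.4 in the unexposed library (log2 0.03, interval -0.10 to 0.14). MRAP, the accessory protein that carries MC2R to the cell surface (chr31:27059096-27082656), read 162 against 252 FPKM on 107 and 223 reads (log2 -0.63, interval -1.03 to -0.34). It was lower in the Beagle pair as well, at 133 against 407 FPKM (log2 -1.61). MRAP2, a related protein, read 2.11 against 2.78 FPKM (log2 -0.28).

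Downstream of the receptor most genes were slightly lower. Of 24 measured members of the ACTH and cyclic AMP list 7 were higher and 17 lower, none by 2-fold, with a median log2 of -0.12. GNAS, the stimulatory G protein, read 911 against 931 FPKM (log2 -0.03). The adenylyl cyclases ADCY3, ADCY5, ADCY6 and ADCY9 were at log2 -0.35 to -0.13. Among the kinase subunits PRKACA, a catalytic one, was at log2 -0.28 and PRKACB at -0.08, while the regulatory PRKAR1A was at -0.07, PRKAR1B at -0.31, PRKAR2A at 0.16 and PRKAR2B at 0.42 (136 against 101 FPKM). The phosphodiesterases, which end the cyclic AMP signal, spread around 0, from PDE4B at log2 -0.20 to PDE8B at 0.22. The nuclear end of the pathway was lower, with CREB1 at log2 -0.18, CREM at -0.13 and CRTC2 at -0.28, and the anchor AKAP1 was at -0.10. INHA, the inhibin alpha subunit made by cortical cells, stood highest in the list at 42.8 against 28.0 FPKM (log2 0.60, interval 0.45 to 0.77).

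The gene with the highest ratio in the zonation list, and the third highest of well-read named genes, was PROM1. Prominin-1 is a membrane protein known from epithelial and stem-like cells (chr3:64230064-64362347). It read 111 FPKM in the stressed and 18.1 in the unexposed library, on 4622 and 953 reads (log2 2.55, interval 2.56 to 2.76). The Beagle pair read 111 against 54.9 FPKM (log2 1.01), so that both stressed libraries lay above both unexposed ones. PROM1 was the 1 member of 19 measured that was 2-fold different, and the list's median was 0.08, which is below 0 on 3 other scales. SHH, the progenitor signal of the outer cortex, read 10.8 against 6.81 FPKM (log2 0.59, Beagle -1.75). AGTR1, the angiotensin receptor of the aldosterone-making zone, read 471 against 370 FPKM (log2 0.35). NR2F2 was the lowest member, at 26.9 against 35.9 FPKM (log2 -0.40).

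Transcripts of some plasma proteins, FGG and ALB among them, were far higher in the stressed library. FGG, the fibrinogen gamma chain (chr15:52261219-52270169), read 106 FPKM in the stressed and 9.78 in the unexposed library, on 2387 and 286 reads (log2 3.32, interval 3.26 to 3.62). ALB, serum albumin (chr13:62152697-62169575), read 9.09 against 0.121 FPKM on 288 and 5 reads, a log2 of 3.17 after the added 1 and an interval of 4.99 to 7.86 for the reads. HP, haptoglobin, which binds free haemoglobin (chr5:77795315-77799904), read 52.5 against 9.13 FPKM (log2 2.40, interval 2.26 to 2.79). FETUB, the liver protein fetuin-B, read 11.3 against 3.03 FPKM (log2 1.61). RBP4, the carrier of retinol in blood (chr28:7823194-7830387), was abundant, at 1685 against 637 FPKM on 11138 and 5498 reads (log2 1.40, interval 1.35 to 1.45). On the scale centred on genes of like FPKM its ratio was 0.97, just under 2-fold.

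Not all genes of this kind were higher. Of 32 matched members of the acute-phase and plasma protein list 24 were higher and 8 lower with no filter on level, at a median log2 of 0.43, or 0.35 with the 5 members at 0 reads in one library set to their bound. Measured were 21, with 7 higher and 1 lower by 2-fold, but 6 of the 21 passed the minimum only through the stressed library. The 12 members with a mean of at least 5 FPKM had a median of 0.03. The other 2-fold members rested on fewer reads. FGB, the fibrinogen beta chain, had 71 against 2 reads (log2 1.76, interval 3.62 to 8.60). APOH had 50 against 11 reads (log2 1.52) and C4BPA, a complement regulator, 83 against 30 (log2 1.18). APOA2 had 8 reads against 0. With the 0 set to the 3 reads that it allows, the ratio is 3.47-fold, which leaves out the counting error of the 8 reads. CFI, a complement protease read at 199 against 142 FPKM, was at log2 0.49 and APOA1 at 0.50. C3, CP and HPX, also members of the list, were at log2 -0.02, 0.09 and 0.29.

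The 2-fold lower member was ITIH4, an inter-alpha-trypsin inhibitor chain placed on an unplaced scaffold. It read 44.2 FPKM in the stressed and 175 in the unexposed library, on 1997 and 10103 reads (log2 -1.96, interval -2.03 to -1.89). The Beagle pair had the same direction, at 71.4 against 182 FPKM (log2 -1.34). Serum amyloid A, a major acute-phase protein of the dog, was also lower. One SAA1 gene on chromosome 21 read 8.10 against 40.4 FPKM on 50 and 256 reads (log2 -2.19), and its 2 unnamed measured neighbours with the same description were at log2 -2.91 and -1.37. These genes are near-identical copies, so how reads were divided among them is uncertain, but the direction was the same for all 3 in the Field Dog pair. In the Beagle pair the SAA1 gene was at log2 0.25 and the neighbours, in the same order, at -0.62 and -0.46. A2M, a protease inhibitor, read 5.09 against 10.1 FPKM (log2 -0.87).

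Albumin, fibrinogen and apolipoproteins are defining products of hepatocytes. Of 19 matched hepatocyte markers 15 were higher and 4 lower with no filter on level, at a median log2 of 0.65, or 0.50 with the 4 markers at 0 reads in the unexposed library set to their bound. Of the 19, 9 were measured, but 4 of the 9 passed the minimum only through the stressed library, and the 4 with a mean of at least 5 FPKM had a median of 0.21. All 19 summed to 544 FPKM in the stressed and 315 in the unexposed library, most of it APOA1. The 10 not measured were below a mean of 1 FPKM, and none was at 0 in both libraries. In the Beagle pair ALB read 27.6 FPKM in the stressed and 0.790 in the unexposed library. Whether RNA of other tissue contributed to these ratios was not tested.

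**Figure D2:**
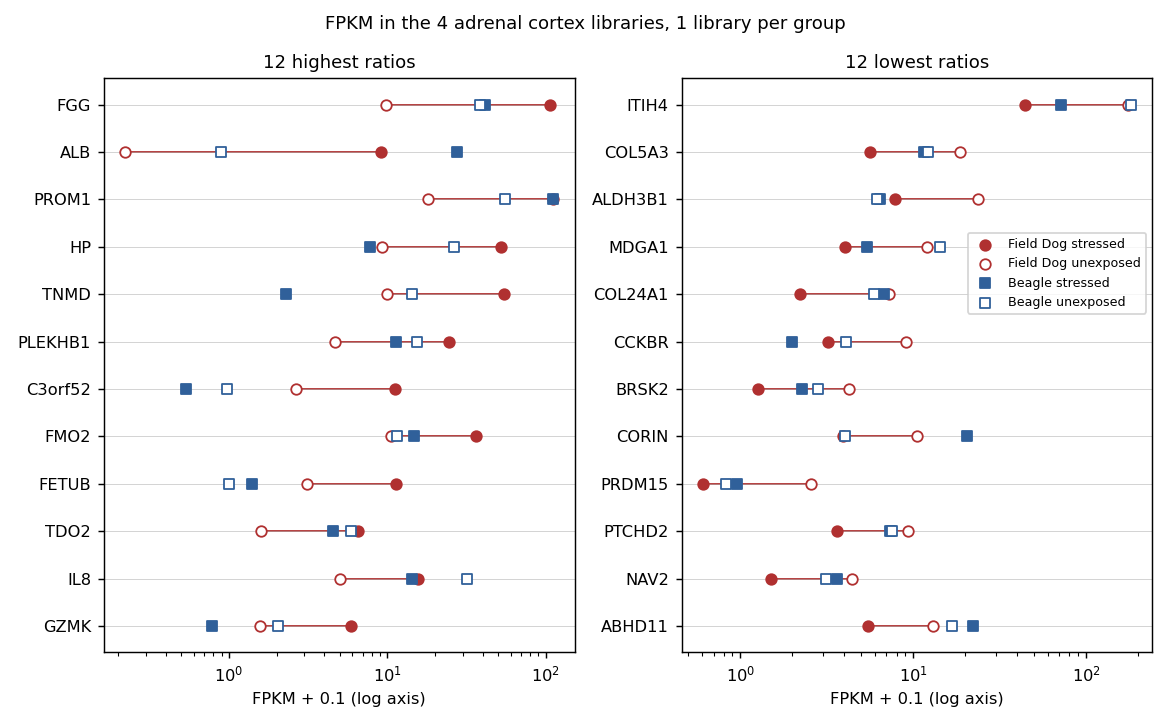
FPKM + 0.1 (log axis) of the 12 highest and 12 lowest ratios among named genes with at least 100 reads, in the 4 adrenal cortex libraries; red circles are Chinese Field Dog, blue squares Beagle, filled stressed and open unexposed. FGG runs from 9.78 to 106 FPKM in the Field Dog while both Beagle libraries sit near 40, and ITIH4 is lower in both stressed libraries.

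Other genes with high ratios had varied roles. TNMD, tenomodulin, a glycoprotein of tendon and fat tissue, read 54.4 FPKM in the stressed and 9.90 in the unexposed library (log2 2.35, interval 2.24 to 2.68). SPARCL1, an abundant matrix protein of vessels, read 1274 against 497 FPKM on 31268 and 15449 reads (log2 1.36, interval 1.37 to 1.42). FMO2, a flavin monooxygenase, read 36.3 against 10.5 FPKM (log2 1.70). TDO2, which breaks down tryptophan and responds to glucocorticoids in liver, read 6.41 against 1.502 FPKM on 95 and 29 reads (log2 1.57). IL8, the neutrophil chemokine, read 15.5 against 4.90 FPKM (log2 1.48, interval 1.41 to 1.91). GZMK, a granzyme of T and natural killer cells, read 5.78 against 1.48 FPKM (log2 1.45). The remaining members of the 15 highest were PLEKHB1 (log2 2.19), C3orf52 (1.76), PRR5, a subunit of the kinase complex mTORC2 (1.43), and SLC16A12, a monocarboxylate transporter (1.38).

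Several retinoid genes stood among the higher ones, in a list chosen after the values were seen. Beside RBP4 these were RARRES1, named for its response to retinoic acid (170 against 73.0 FPKM, log2 1.21), LRAT, which stores retinol as esters (7.43 against 2.75, log2 1.17), and ALDH1A1, which makes retinoic acid (69.3 against 32.6, log2 1.07). Over the whole list of 24 measured genes 14 were higher and 10 lower, with a median log2 of 0.05 that is below 0 on 3 other scales. RDH8, a retinol dehydrogenase, was 2-fold lower on 15 against 57 reads (log2 -1.08).

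Fat cell markers were higher as a group. Of 10 measured markers 9 were higher, 2 by 2-fold, with a median log2 of 0.49 and a summed level of 198 FPKM in the stressed and 107 in the unexposed library. TNMD led, followed by DGAT2, the last enzyme of triglyceride synthesis (24.8 against 10.9 FPKM, log2 1.12), CIDEC, a lipid droplet protein (12.4 against 6.93, log2 0.75), and LPL, lipoprotein lipase (34.5 against 22.1, log2 0.62). PLIN4 was the 1 lower member (log2 -0.33). APM1, listed under this older symbol for adiponectin, read 25.4 against 13.3 FPKM (log2 0.88). In the Beagle pair all 11 measured markers were lower in the stressed library, with a median log2 of -2.07.

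Endothelial genes were higher throughout on the authors' scale. All 15 measured markers were higher in the stressed library, with a median log2 of 0.27, no member 2-fold and a summed level of 431 against 322 FPKM. As RPM the median was 0.10, against -0.147 for all genes. EMCN, endomucin, read 59.3 against 36.5 FPKM (log2 0.68), VWF, von Willebrand factor, 12.4 against 7.76 (log2 0.61) and PECAM1 76.2 against 50.1 (log2 0.60). CDH5, the junction protein VE-cadherin, was nearest to equal at 18.3 against 17.2 (log2 0.08), within the 0.18 by which library totals lower every read ratio. In the Beagle pair 13 of 15 were higher, with a median of 0.22. Smooth and striated muscle markers were higher in 5 of 7, led by the contractile protein CNN1 (6.91 against 2.80 FPKM, log2 1.06).

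Among the genes with the lowest ratios were 2 collagens. COL5A3, a chain of type V collagen (chr20:51037377-51074394), read 5.54 FPKM in the stressed and 18.5 in the unexposed library on 421 and 1832 reads (log2 -1.58, interval -1.90 to -1.59). COL24A1, a fibril collagen, read 2.12 against 7.09 FPKM (log2 -1.38). They were the only 2-fold members of 14 measured minor collagens, a list chosen after the values were seen, of which 9 were lower and 5 higher with a median log2 of -0.20.

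MDGA1, an adhesion protein of neurons, read 3.93 against 11.9 FPKM (log2 -1.39, interval -1.83 to -1.38, Beagle -1.26). CCKBR, the gastrin and cholecystokinin receptor, read 3.09 against 8.96 FPKM (log2 -1.28), and BRSK2, a kinase of neuronal polarity, 1.17 against 4.15 (log2 -1.25). The potassium channel subunit gene KCNMB2 was at log2 -1.10, and PPFIA4, a scaffold of synapses, also at -1.10. CORIN, the protease that activates atrial natriuretic peptide, read 3.83 against 10.4 FPKM (log2 -1.24). ALDH3B1, an aldehyde dehydrogenase, read 7.77 against 23.7 FPKM (log2 -1.49). Others of the 15 lowest were PRDM15, PTCHD2, NAV2 and ABHD11, at log2 -1.20 to -1.13. These levels are low: with 5 in place of 1 added to each FPKM, 12 of the 15 lowest and 2 of the 15 highest were below 2-fold.

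Chromaffin markers were lower in 24 of 29 cases, with a median log2 of -0.35 and a summed level of 5581 FPKM in the stressed and 6430 in the unexposed library. None was 2-fold different and none was at 0. The difference was uneven across the catecholamine pathway. TH, tyrosine hydroxylase, its first enzyme, read 134 against 140 FPKM (log2 -0.07) and DDC, the second, 9.45 against 15.4 (log2 -0.65). DBH, which makes noradrenaline, read 239 against 331 (log2 -0.47), while PNMT, which makes adrenaline and is known to depend on cortical glucocorticoid, read 382 against 345 (log2 0.15). The transporters SLC18A1 and SLC6A2 were at log2 -0.78 and -0.69.

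Among granule proteins and peptides, CHGA read 989 against 1316 FPKM (log2 -0.41) and CHGB 1414 against 1283 (log2 0.14). CARTPT, a neuropeptide precursor, read 246 against 406 FPKM (log2 -0.72), and PENK, the enkephalin precursor, 1586 against 1878 (log2 -0.24). UCN, urocortin, had the highest ratio on 21 and 12 reads only (log2 0.98, interval 0.10 to 2.34). Markers of Schwann and glial cells were lower in 8 of 11, with a median log2 of -0.27, and NGFR, a neurotrophin receptor, was lowest among them (7.55 against 13.3 FPKM, log2 -0.74). S100B, a calcium-binding protein of glia, was 2-fold higher, on 7 and 2 reads only (log2 1.44, interval -0.21 to 5.49). In the Beagle pair 27 of 29 chromaffin markers were lower, with a median of -0.72. The part that medulla left with the cortex plays in these ratios was not tested.

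**Figure D3:**
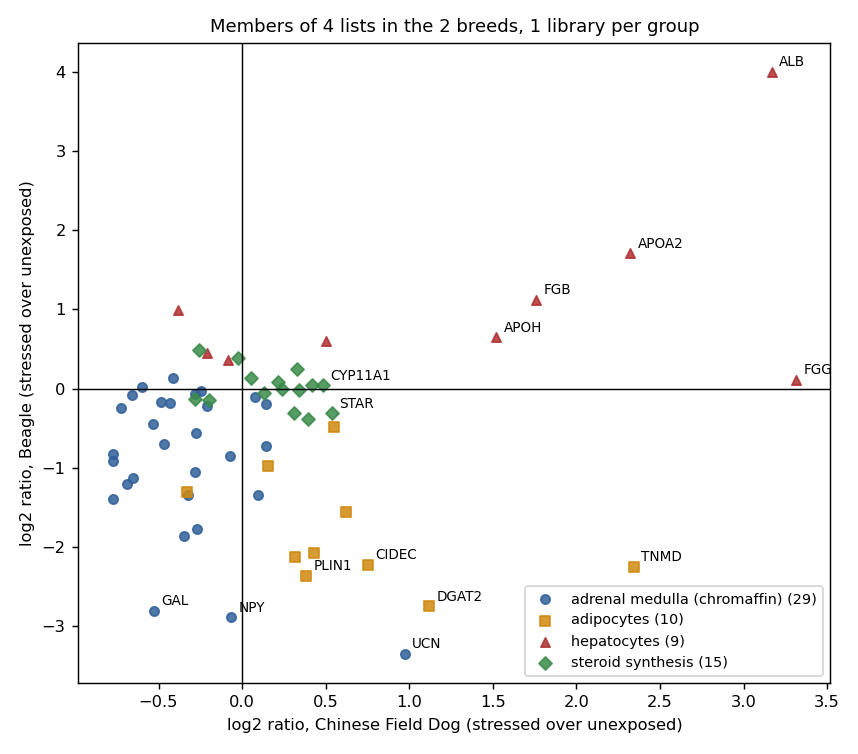
Log2 ratio of stressed over unexposed in the Chinese Field Dog (x axis) and in the Beagle (y axis) for the measured members of 4 lists, each point a gene and each ratio from 2 libraries. Chromaffin markers lie mostly at lower left, adipocyte markers at lower right, ALB and APOA2 at upper right, and the steroid genes near the centre.

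Lower values also ran together in 2 stretches of the genome whose genes mostly carry no name, chosen after the values were seen. On chromosome 26 between 25050204 and 27632004, a stretch that holds a gene named as an immunoglobulin lambda variable segment (IGLV11-55, listed at 0), 26 unnamed genes were measured. Of these 24 were lower in the stressed library, 23 by 2-fold, with a median log2 of -1.64 and 397 reads in the stressed against 2144 in the unexposed library. Of the other 2, ENSCAFG00000032325 was 2-fold higher, on 50 against 15 reads (log2 1.72). Many of the 26 passed the minimum only through the unexposed library, as ENSCAFG00000029467 at 0.167 against 2.81 FPKM. The counts and the median therefore lean toward lower genes. With at least 50 reads, 10 unnamed genes were 2-fold lower and 1, ENSCAFG00000032325, was 2-fold higher. The 2 named measured genes there, PCBP2 and ZNF280B, were at log2 0.13 and 0.04.

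At the end of chromosome 8, between 72847360 and 74068127, lies IGHE, the immunoglobulin heavy constant epsilon gene, with 5 against 13 reads. All 8 unnamed measured genes of that stretch were lower, 7 by 2-fold, with a median log2 of -1.504 and 838 against 4537 reads. Most of these reads belonged to ENSCAFG00000030258, which read 39.2 FPKM in the stressed and 174 in the unexposed library on 685 and 3753 reads (log2 -2.12). Some of the 8 passed the minimum only through the unexposed library and on few reads, as ENSCAFG00000030900 on 0 against 4. With at least 50 reads, 4 were 2-fold lower and 0 were 2-fold higher. The 1 named measured gene of this stretch, RPS24, was at log2 0.70. Both stretches together held 14 of the 55 2-fold lower genes with at least 50 reads, and 14 of the 21 of these that carry no name. IGJ, the joining chain of secreted antibodies, was lower as well, at 12.4 against 20.8 FPKM (log2 -0.70). Other plasma cell genes differed in direction: DERL3 was at log2 0.70, CD38 at 0.32, SDC1 at 0.04 and TNFRSF17 at -0.19 on 38 and 62 reads, for 3 of 5 higher. In the Beagle pair, 6 of 7 measured unnamed genes on chromosome 26 and 4 of 5 on chromosome 8 were also lower. The files name none of these genes, so none is called an immunoglobulin here, and genes of such clusters can share reads with near-identical copies.

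Other immune lists were mixed. Lymphocyte markers were 7 higher and 8 lower (median log2 -0.00), with GZMK and the chemokine CCL5 (19.3 against 11.3 FPKM, log2 0.72) at the top and the pan-leukocyte gene PTPRC at 13.7 against 18.8 FPKM (log2 -0.42). Macrophage markers were lower in 12 of 16 (median log2 -0.23). CD163, the haemoglobin scavenger receptor, read 67.2 against 93.0 FPKM (log2 -0.46) and LYZ, lysozyme, 30.3 against 43.7 (log2 -0.51), whereas the complement genes C1QA, C1QB and C1QC were at log2 0.09 to 0.16. Genes of antigen presentation were lower in 12 of 14 (median log2 -0.14), led by the class I gene DLA-64 (606 against 886 FPKM, log2 -0.55) and the class II gene DLA-DRB1 (280 against 389, log2 -0.47). DLA genes are polymorphic and alike, so their counts are uncertain. Interferon genes were 15 higher and 9 lower (median log2 0.12, below 0 on 2 other scales), with IFI6, an interferon-induced gene, at 75.4 against 108 FPKM (log2 -0.52). Neutrophil markers were 3 of 3 higher (median 0.28), each on fewer than 100 reads over both libraries. With no filter 5 of the 8 matched were higher and 2 lower, and in the Beagle pair 0 of 3 measured were higher. Mast cell markers were 3 of 5 higher (0.16), erythroid markers 1 of 2 (0.36, or -0.00 with no filter) and kidney tubule markers 1 of 3 (-0.00).

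Genes of translation and respiration were higher almost without exception. Of 36 measured cytosolic ribosomal protein genes 35 were higher, with a median log2 of 0.52 and no member 2-fold. RPS21 read 15231 FPKM in the stressed and 9701 in the unexposed library (log2 0.65). All 34 measured nuclear genes of the respiratory chain were higher (median log2 0.34), as SDHB of complex II at log2 0.72. Of the 13 genes of the mitochondrial chromosome 12 were higher (median log2 0.67). MT-ND2 read 8658 against 4671 FPKM (log2 0.89), MT-CYB 5659 against 3211 (log2 0.82) and MT-ND6, the 1 gene lower and the only protein gene coded on the light strand, 1196 against 1294 (log2 -0.11).

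These lists share high abundance and, outside the mitochondria, short transcripts, and both properties moved with the ratio over all genes. The median log2 ratio climbed from -0.09 for the 1211 genes at 1 to 2 FPKM to 0.43 for the 265 genes at 500 FPKM or more, of which 80.4% were higher. With measured genes divided by length into 4 groups of equal size, the shortest group had a median of 0.12 and the longest -0.05. Among genes at 100 FPKM or more the groups ran from 0.38 for the shortest to 0.12 for the longest. The Beagle pair had medians between -0.06 and 0.03 in the same abundance bins. Centred on genes of like mean FPKM, the medians were 0.13 for ribosomal proteins, 0.10 for nuclear respiratory genes and 0.23 for mitochondrial genes. The share of RNA quality or library preparation in this trend was not tested. FPKM itself is unreliable for very short genes, as TIMM13, listed at 37467 FPKM on 13 reads.

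**Figure D4:**
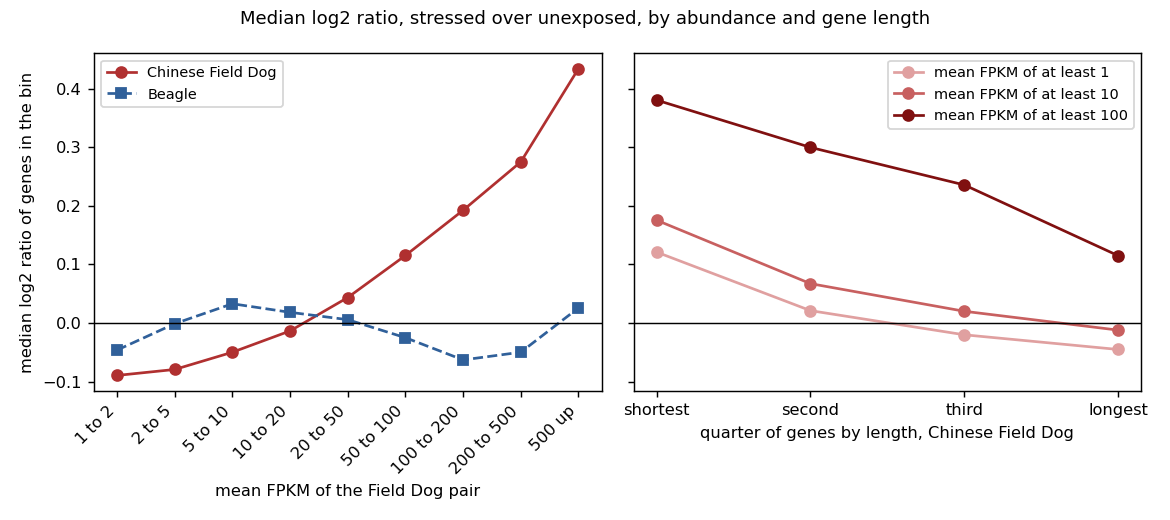
Median log2 ratio of genes by mean FPKM in both breeds (left) and by 4 groups of gene length in the Chinese Field Dog at 3 minimum levels (right); each point is a bin. In the Field Dog the median climbs from -0.09 to 0.43 with abundance and drops with length at each level, while the Beagle stays within -0.06 to 0.03.

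Immediate-early genes and targets of the glucocorticoid receptor had more members lower than higher. Immediate-early genes, transcribed within minutes of a stimulus, were lower in 16 of 21 (median log2 -0.22). EGR1 read 93.0 FPKM in the stressed and 147 in the unexposed library (log2 -0.65), NR4A2, an orphan nuclear receptor, 6.49 against 12.5 (log2 -0.85), FOSB 6.37 against 11.6 (log2 -0.77) and FOS 195 against 227 (log2 -0.21). NR4A1, which ACTH induces in cortical cells, read 84.9 against 118 (log2 -0.47). The list's median in the Beagle was 0.10.

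Glucocorticoid receptor targets were lower in 12 of 20 (median log2 -0.10). FKBP5, a co-chaperone widely used as a readout of the receptor, read 141 against 149 FPKM (log2 -0.08) and PER1 31.6 against 42.9 (log2 -0.43), while ERRFI1 read 10.8 against 6.69 (log2 0.62). The receptor gene NR3C1 was at log2 -0.11, within a list of steroid receptors and cortisol enzymes with 6 of 10 higher (median 0.04, below 0 on 4 other scales). Circadian clock genes, a list chosen after the values were seen, were 9 of 16 higher (median 0.05, below 0 under 4 alternatives), with PER2 at log2 0.60 and NPAS2 at -0.71.

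Heat shock genes were lower in 12 of 17 (median log2 -0.09). HSPB1 read 592 against 801 FPKM (log2 -0.44) and HSPE1, the mitochondrial co-chaperonin, 5219 against 3740 (log2 0.48). Genes of endoplasmic-reticulum stress were lower in 13 of 20 (median -0.03), with the chaperone CALR at 227 against 312 FPKM (log2 -0.46). Antioxidant genes were split, 12 of 20 higher (median 0.08, below 0 on 4 other scales). SOD1, the cytosolic superoxide dismutase, read 1767 against 1049 FPKM (log2 0.75) and GPX3, the secreted glutathione peroxidase, 118 against 70.8 (log2 0.73). HMOX1, the haem-degrading enzyme, read 31.0 against 59.8 FPKM on 790 and 1986 reads (log2 -0.93, interval -1.07 to -0.83). Interleukin-6 and inflammatory genes were 12 of 21 higher (median 0.06, below 0 on 3 other scales), with IL6 itself at 21 reads in each library.

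Genes of dividing cells were lower in 17 of 23 (median log2 -0.29), but 2 of the 23 passed the minimum only through the unexposed library. The 10 with a mean of at least 5 FPKM had a median of -0.08. MKI67, the Ki-67 antigen, read 0.503 FPKM in the stressed and 1.79 in the unexposed library on 53 and 245 reads (log2 -0.89, interval -2.29 to -1.40), and TOP2A, topoisomerase II alpha, 1.71 against 3.90 on 137 and 400 reads (log2 -0.85). UBE2C was the 1 member lower by 2-fold, on 9 and 33 reads (log2 -1.10). BIRC5, survivin, lay the other way at log2 0.52. Cholesterol genes were 17 of 29 higher (median 0.05, below 0 on 4 other scales), with APOE at 2200 against 1663 FPKM (log2 0.40) and ABCA1, the cholesterol exporter, at log2 -0.31. Fibroblast and matrix genes were 10 of 19 higher (median 0.17), from LUM, lumican, at log2 1.02 to COL6A3 at -0.65. Basement membrane genes, a list chosen after the values were seen, were 9 of 20 higher (median -0.05), with LAMA1 at log2 1.22.

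**Figure D5:**
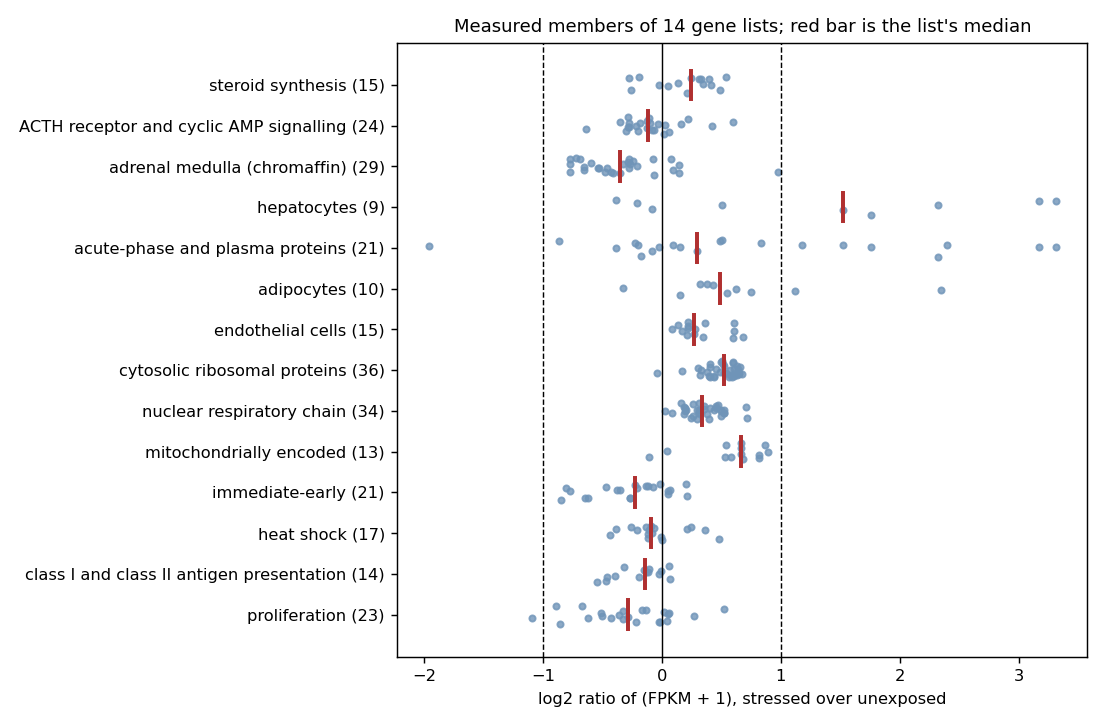
Log2 ratio of FPKM + 1, stressed over unexposed, for the measured members of 14 lists, with the number of members in brackets; each point is a gene, red bars are medians and dashed lines mark 2-fold. Hepatocyte markers spread from -0.39 to 3.32 and 4 of them are measured only through the stressed library, ribosomal and mitochondrial genes form tight groups above 0, and chromaffin markers lie mostly below 0.

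The same genes were then read in the Beagle adrenal cortex, where 450 of 13730 measured genes (3.28%) were 2-fold different, 114 (0.83%) higher and 336 (2.45%) lower in the stressed library. Of the 67 genes 2-fold higher in the Chinese Field Dog with at least 50 reads, 58 were measured in the Beagle. There 22 had the same direction, against 50.8% of all measured genes above 0, and 2 were 2-fold higher while 5 were 2-fold lower. The 2 were ALB and PROM1, and the 5 were HP, TNMD, IL8, DGAT2 and CALB1. Of the 55 lower genes 48 were measured, 33 had the same direction against 49.2% of all genes below 0, and 9 were 2-fold lower while 1, CORIN, was 2-fold higher. The 9 were ITIH4, MDGA1, CBLN2 (a synaptic cerebellin), KIF1A (a motor of axonal transport) and 5 unnamed genes of the stretches on chromosomes 26 and 8. Of the 58 higher genes, the stressed Field Dog library alone lay outside the range of the other 3 adrenal libraries in 20, the unexposed one alone in 9 and both in 28. Of the 48 lower genes the stressed library alone lay outside in 15, the unexposed one alone in 22 and both in 11. All these genes were picked for a 2-fold difference between the 2 Field Dog libraries. That at least 1 of them lay outside was therefore nearly fixed in advance, and the share over all genes is not given. In FGG both lay outside, with the stressed library above and the unexposed library below the Beagle values of 41.5 and 38.4 FPKM.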

How the data were processed

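The authors' deposited tables give, per library and gene, an FPKM and a scaled count, over 24580 Ensembl genes. Reads were aligned with TopHat to CanFam3.1, per the submitters' processing notes; the versions and the counting program are not given in the sources used here. Per the labels, TruSeq libraries were sequenced on the Genome Analyzer IIx, and the extraction protocol speaks of spleen while the tissue labels give adrenal cortex. The deposited scaled counts are a signal that is a whole multiple of 1 step per library (1.17 stressed, 0.899 unexposed); dividing by it gave whole reads within 0.02 for 98.7% and 98.8% of values. A count test on 1 library a side was not possible. Columns of 1 library agreed exactly between the tables that repeat it (8 of 8). The authors' ratio, p-value and call columns were not used.

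Ratios were log2 of FPKM plus 1 for genes averaging at least 1 FPKM. Counting intervals are 95% Clopper-Pearson intervals on reads. They were planned on library totals but are given on the authors' scale, to which the FPKM belong; on totals every interval is 0.18 lower. Lists were matched on the 16080 symbols used once. Named were the 15 highest and 15 lowest ratios with at least 100 reads, the 10 most abundant genes by FPKM, up to 6 members per list and 2 genes on each side of 2-fold; others named were chosen after their values were seen. Members, 18 pathway lists and 15 cell type lists were chosen with earlier results of these data known, and 5 lists were added after the values were seen. Alternatives used edgeR 4.0.16 (TMM) and DESeq2 1.42.0 factors in R 4.3.3, and other steps Python 3.11.15 with scipy 1.17.1. The ratio and interval code was tested on simulated data. Some genes that the naming rule covers are not reported here. No sequence is shown, and the planned motif search was not run.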

Additional observations from a re-analysis of the deposited data

Results flagged for a closer look

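The 2 breeds gave opposite 2-fold ratios for several genes, each from 1 library per group, so that the difference between the breeds was not tested. HP was at log2 2.40 in the Field Dog pair against -1.65 in the Beagle pair. TNMD was at 2.35 and -2.25, IL8 at 1.48 and -1.11, and DGAT2 at 1.12 and -2.75. CALB1, a calcium-binding protein, was at 1.01 and -1.24, while CORIN lay the other way at -1.24 and 2.12. The median of the adipocyte markers was 0.49 and -2.07 in the same order.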

How the results depend on the processing

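The 275 genes counted as 2-fold different (135 higher, 140 lower) became 450 (203 and 247) with 0.1 added to FPKM and 135 (72 and 63) with 5 added. They became 160 (81 and 79) at a mean FPKM of at least 5, 122 (67 and 55) with at least 50 reads, and 92 (44 and 48) where the whole counting interval lay beyond 2-fold, or 96 (35 and 61) with the interval on library totals. RPM, which changes the scale and also drops the division by length, left 45 higher. Counts under TMM, DESeq2 and the other scales stayed within 1.5 times. The median of all genes, 0.01, was -0.147 as RPM, -0.0979 without the 10 most abundant genes, -0.0906 on reads outside the mitochondrial chromosome, 0.0052 with TMM, 0.0351 at a mean FPKM of at least 5, -0.0017 with no filter, and 0 by construction where centred. List medians that changed sign from a size of at least 0.1 were interferon response (-0.0590 as RPM, -0.0017 without the 10 most abundant genes), adrenocortical cells (-0.194 centred on genes of like FPKM) and erythroid cells (-0.0032 with no filter); the cause was not tested. Of 492 alternative list medians 452 stayed within the spread of their members, and of 431 values of named genes 374 stayed within counting error and 0 changed sign. These named genes were picked for large ratios or for lying near 2-fold, so a change of sign was unlikely from the start. Filters on level or reads leave a gene's own ratio unchanged, which adds to the 374. No paired analysis was possible because each group held 1 library, and leaving out a library left no comparison. Depth limits genes under 50 reads most. Alternatives on reads outside the mitochondrial chromosome, rebuilt FPKM, like-FPKM centring and intervals on library totals were chosen after seeing the data.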

Other observations

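TRDC, named as the constant gene of the T cell receptor delta chain, read 596 FPKM in the stressed and 260 in the unexposed library, on 8446 and 4875 reads (log2 1.19, interval 1.12 to 1.22). Its partners in the T cell receptor complex were near the lower limit of measurement: CD3E read 2.94 against 2.58 FPKM, CD3G 1.12 against 0.963 and CD3D 0.830 against 0.769. Both Beagle libraries also listed TRDC high, at 291 and 391 FPKM. Its annotated span is chr8:2859774-2867506 in CanFam3.1.

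Some genes best known from other organs were also read, most of them at low levels. SLC22A6, the organic anion transporter of the kidney, had 81 reads in the stressed and 13 in the unexposed library (log2 1.72). It passed the minimum only through the stressed library (3.88 against 0.479 FPKM). The other 2 of 3 measured kidney tubule markers were lower, and the median of the 3 was -0.00. PRL, pituitary prolactin, had 24 against 78 reads (log2 -1.03), and NTS, neurotensin, 75 against 36 (log2 1.17). INSL3, a peptide of testis and ovary, was abundant and level, at 309 against 315 FPKM (log2 -0.03), with 298 against 108 FPKM in the Beagle pair. Of 11 sex-linked symbols listed only 3 matched. These were all higher in the stressed library (median log2 0.33), and the sex of the dogs was not read from them.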
